A study of Homo sapiens with 9 samples.

Results

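The genes described here are the long non-coding RNA genes of the count table that carry a LINC symbol or a symbol ending in -AS1, -AS2 or -IT1. They were chosen by name and by a mean of at least 20 raw counts over the 9 libraries, with EPB41L4A-AS1 left out. Of 30017 genes in the table, 1235 carried such a name, 572 of these had no count in any library, and 191 reached the limit. Among the 191, 58 were named LINC, 126 -AS1, 4 -AS2 and 3 -IT1. The mean count was used for the choice and is not a result, and no comparison between groups was used. The mean spans all libraries, so near the limit a gene may reach it through the group where it is high. Just inside the limit were MATN1-AS1 and GAS6-AS2, with means of 20.0 and 20.2 counts, and just outside it LINC00685 and DGUOK-AS1, both with 19.

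RNA was sequenced from MOLM13 cells, a human acute myeloid leukemia line with monocytic features, after transduction with pLKO-GFP lentivirus that carried a short hairpin RNA. There were 3 libraries, lettered A, B and D, for each of sh-Control, a control hairpin, and shDDX41 #1 and shDDX41 #2, which target the RNA helicase DDX41. The sort took place on day 4, and all 9 libraries came from the same line. The labels do not say that the libraries of a group came from separate cultures, so the p-values measure the spread between these libraries, which may be technical.

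A long non-coding RNA is transcribed and spliced like an mRNA but has no long reading frame. LINC is the placeholder name for those that lie between protein-coding genes, -AS marks a transcript from the strand opposite to a named gene, and -IT one that lies in an intron of it. Many are made at a promoter that also drives a protein-coding gene in the other direction. Known roles include binding of proteins and of microRNAs, hosting of small nucleolar RNAs in introns, and effects on the neighbouring gene. Some LINC transcripts turned out to encode small proteins and were renamed.

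The libraries held from 16385238 to 20510032 counts. DDX41 was at 115 ± 1.76 CPM (counts per 1e+06 counts of a library, mean ± SD, n = 3) in sh-Control, 11.7 ± 1.56 with shDDX41 #1 and 40.4 ± 1.85 with shDDX41 #2, with no overlap of the groups. Replicate D of shDDX41 #1 stood apart from its partners: the chi-square per degree of freedom over tested genes was 17.6 and 19.2 against libraries A and B, which differed by 2.91 from each other. By the same measure the sh-Control libraries differed by 8.0 to 10.1 from each other, and those of shDDX41 #2 by 2.45 to 3.25. Of 10 myeloid and leukemia markers, 9 were over 1 CPM in every library, and CD14 was under it in each. Of 11 markers of T, B, erythroid, epithelial, fibroblast, endothelial cells and platelets, 8 were under 1 CPM in every library, and HBB and PPBP had no count. KRT18 and PECAM1 were over 1 CPM in each, at 13.5 to 17.7 and 97.9 to 186 CPM. Most of the summed level of these 11 was PECAM1. That sum was 149 to 157 CPM in sh-Control, 114 to 121 with shDDX41 #1 and 198 to 204 with shDDX41 #2. The summed level of the 10 myeloid and leukemia markers was 2340 to 2520 CPM in sh-Control, 2400 to 2460 with shDDX41 #1 and 3230 to 3290 with shDDX41 #2. The part of either list in the differences below was not tested. In bulk RNA, fewer cells with a transcript and less of it per cell cannot be told apart.

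Of the 191 genes, 180 were matched to GENCODE 29 (GRCh38), 37 of them through an older symbol. An exon overlapped one of a protein-coding gene on the opposite strand in 89 and on the same strand in 13. Of the genes with no shared exon bases, 38 began within 2 kb of a protein-coding start on the opposite strand, 5 lay opposite to introns only, and 40 had none of these arrangements. In all, 94 began within 2 kb of a protein-coding start on the opposite strand. In that release 11 of the genes are annotated as protein-coding. The symbols HNRNPU-AS1, LINC00341 and USP6NL-IT1 are now part of HNRNPU, SYNE3 and USP6NL. The labels name a stranded library kit and the methods of the study a kit without strand, and the strand setting of the counting is not given, so reads of an antisense gene and of the gene it overlaps may not be told apart.

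Promoters were read for 149 of the 191 genes from the RefSeq table (GRCh38.p14), as 250 bases before to 50 bases after the start. The 6 shown are those of genes the results turn on, 4 that were higher and 2 that were lower with shDDX41 #1. Capitals mark matches on either strand to the motif CCGGAA (core letters of ETS-type sites), the GC box with the letters GGGCGG, the box with the letters CCAAT, and the box with the letters TATAAA. In these windows no match overlaps another, except in PSMG3-AS1, where CCGGAA overlaps its own match on the opposite strand.
SRP14-AS1 (SRP14-DT), chr15:40039061-40039360, plus strand: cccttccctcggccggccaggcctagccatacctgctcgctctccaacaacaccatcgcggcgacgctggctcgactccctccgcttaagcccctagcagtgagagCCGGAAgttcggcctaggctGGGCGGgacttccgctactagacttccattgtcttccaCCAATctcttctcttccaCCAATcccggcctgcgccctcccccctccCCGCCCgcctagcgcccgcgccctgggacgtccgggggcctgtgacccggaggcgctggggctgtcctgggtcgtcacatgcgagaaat
PSMG3-AS1, chr7:1569823-1570122, plus strand: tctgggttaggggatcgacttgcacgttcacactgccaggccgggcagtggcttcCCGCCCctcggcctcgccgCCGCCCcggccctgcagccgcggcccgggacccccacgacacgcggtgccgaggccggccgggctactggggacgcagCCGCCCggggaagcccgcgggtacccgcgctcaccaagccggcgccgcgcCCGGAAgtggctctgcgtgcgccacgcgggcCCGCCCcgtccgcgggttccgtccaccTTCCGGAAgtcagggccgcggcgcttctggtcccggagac
CEBPA-AS1 (CEBPA-DT), chr19:33302571-33302870, plus strand: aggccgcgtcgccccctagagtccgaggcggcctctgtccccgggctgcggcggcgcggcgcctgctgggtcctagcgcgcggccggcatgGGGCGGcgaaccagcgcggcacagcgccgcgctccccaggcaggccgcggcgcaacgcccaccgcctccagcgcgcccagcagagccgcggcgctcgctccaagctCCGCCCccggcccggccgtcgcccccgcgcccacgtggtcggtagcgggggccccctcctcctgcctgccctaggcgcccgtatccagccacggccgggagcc
LINC01021 (PURPL), chr5:27472042-27472341, plus strand: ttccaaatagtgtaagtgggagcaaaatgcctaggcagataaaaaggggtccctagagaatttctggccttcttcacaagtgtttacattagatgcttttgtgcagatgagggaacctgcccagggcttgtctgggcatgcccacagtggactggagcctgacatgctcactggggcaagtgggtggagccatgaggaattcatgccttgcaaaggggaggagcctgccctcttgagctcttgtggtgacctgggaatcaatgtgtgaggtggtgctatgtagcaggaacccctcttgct
TMPO-AS1, chr12:98516177-98516476, minus strand: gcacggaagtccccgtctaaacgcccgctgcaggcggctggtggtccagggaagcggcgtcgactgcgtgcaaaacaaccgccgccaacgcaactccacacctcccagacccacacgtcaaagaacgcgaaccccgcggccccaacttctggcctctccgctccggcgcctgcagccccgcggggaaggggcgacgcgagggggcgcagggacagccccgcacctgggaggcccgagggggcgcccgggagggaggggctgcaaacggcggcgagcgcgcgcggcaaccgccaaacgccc
OIP5-AS1, chr15:41283740-41284039, plus strand: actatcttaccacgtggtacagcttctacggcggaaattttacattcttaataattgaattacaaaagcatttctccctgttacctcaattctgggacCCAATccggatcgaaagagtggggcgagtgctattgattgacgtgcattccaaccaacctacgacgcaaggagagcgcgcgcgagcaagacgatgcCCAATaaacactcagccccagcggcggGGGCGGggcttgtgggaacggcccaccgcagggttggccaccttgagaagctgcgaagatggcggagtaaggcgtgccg
CCGGAA stood in the windows of SRP14-AS1 and PSMG3-AS1 and in none of the other 4. The windows of TMPO-AS1 and LINC01021 held none of the 4 motifs. Over the 149 promoters, CCGGAA was found in 32.2%, against 17.6% of all 27305 promoters of the table, and GGGCGG in 57.7% against 44.6%. CCAAT was found in 36.9% against 35.7% and TATAAA in 5.37% against 12%. The 27305 promoters were not limited to genes with counts here, as the 149 were. Promoters of the other tested genes were not compared. Among genes higher with shDDX41 #1, 20 of 48 windows held CCGGAA, and among those lower, 4 of 21. TATAAA was in 0 of the 48 and in 3 of the 21. Among genes higher with shDDX41 #2, CCGGAA was in 9 of 30 windows, or 30%, and TATAAA in 1. A match is a string of letters and not a binding site.

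Each hairpin was compared with sh-Control, and the hairpins with one another, by the edgeR quasi-likelihood test over 12712 genes, with Benjamini-Hochberg adjusted p-values called under 0.05. All 191 genes were among those tested, and 188 had at least 10 counts in every library, so the filter did not favour a group for them. The other 3, KDM4A-AS1, ALMS1-IT1 and IL10RB-AS1, reached 10 counts in every library of sh-Control and of shDDX41 #2 but not of shDDX41 #1. The median of the mean counts was 75.8, and 115 genes were under 100. At such counts the counting error exceeds the biological coefficient of variation of 0.0768.

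With shDDX41 #1, 64 of the 191 genes rose and 27 fell. The 91 called are 47.6% of the genes, against 47.8% of all genes tested, without matching for counts. With a mean of 20 to 50 counts, 38 of 67 of the genes were not called, against 670 of 1016 other genes. At 50 to 100 counts these were 26 of 48 and 481 of 789, and at 100 to 400 counts 27 of 58 and 1330 of 2583. Over 400 counts they were 9 of 18 and 3186 of 7001. The share called was thus larger than among other genes in each range up to 400 counts and smaller above it. This difference was not tested. The direction differed: 33.5% were higher, against 23.7% of all genes, and 14.1% lower, against 24.1%. The median log2 fold change was 0.235 for these genes and 0.0119 for all genes. The groups did not overlap for 101 of the 191 genes, against 53.1% of all genes. Without replicate D of shDDX41 #1, 60 were higher and 28 lower, and under a filter of 10 counts in each library, 69 and 23.

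With shDDX41 #2, which left more DDX41, 37 genes rose and 7 fell. The 44 called are 23% of the genes, against 25% of all genes, of which 11.6% were higher and 13.4% lower. The median log2 fold change was 0.172, against −0.0109 for all genes, and the groups did not overlap for 78 genes, against 43.8% of all. The count fell to 26 without replicate B and to 27 without replicate D of shDDX41 #2, with 20 higher in each case.

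Other genes with few counts also leaned upwards. Of other genes with a mean of 20 to 50 counts, 69.7% of those called with shDDX41 #1 were higher, against 75.9% of the LINC and antisense genes in that range. At 50 to 100 counts the shares were 66.9% and 72.7%, at 100 to 400 counts 54.7% and 64.5%, and over 400 counts 42.1% and 66.7%, the last of 9 called genes. With shDDX41 #2 the corresponding shares of other genes were 61.0%, 56.7%, 49.5% and 41.1%, and those of the LINC and antisense genes 100%, 72.7%, 81.8% and 75.0%, from 14, 11, 11 and 8 called genes. The shares for the LINC and antisense genes were the larger in each range and rest on few genes, and no test of this difference was made. Of 179 other tested genes annotated as long non-coding, 37 were higher and 12 lower with shDDX41 #1, and 13 and 8 with shDDX41 #2.

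**Figure D1:**
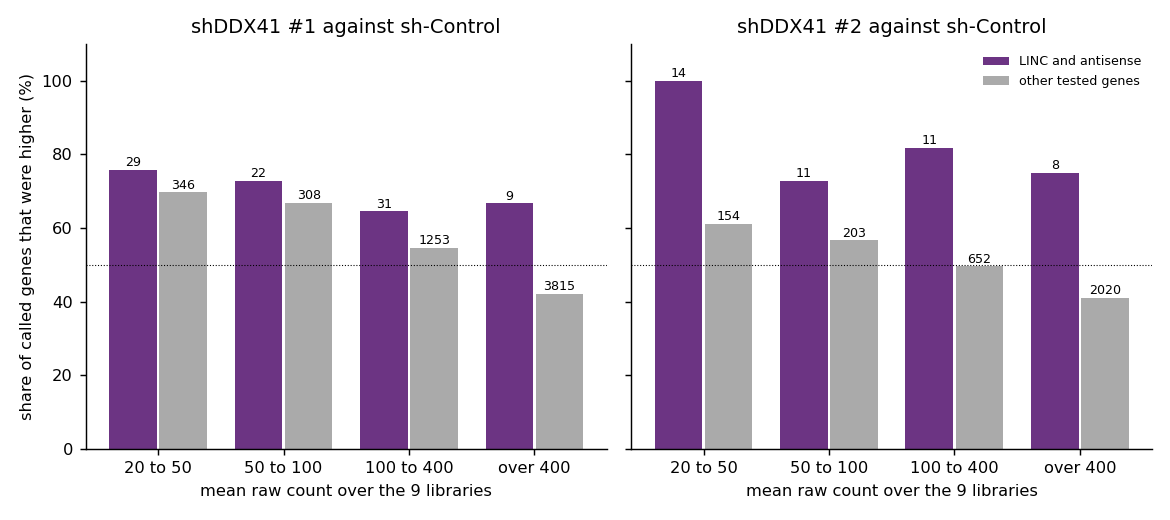
Share of called genes that were higher (%, vertical axis) by mean raw count over the 9 libraries (horizontal axis), for LINC and antisense genes (purple) and all other tested genes (grey), with the number called above each bar. As counts increase, the grey bars fall from 69.7% to 42.1% for shDDX41 #1 and, for shDDX41 #2, from 61.0% to 41.1%, and the purple bars lie above them in every range.

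By name, 43 of the 126 -AS1 genes were higher and 12 lower with shDDX41 #1, and 26 and 4 with shDDX41 #2. Of the 58 LINC genes, 19 were higher and 13 lower with shDDX41 #1, and 11 and 3 with shDDX41 #2. Of the 94 genes that begin within 2 kb of a protein-coding start on the opposite strand, 29 were higher and 8 lower with shDDX41 #1, and 17 and 2 with shDDX41 #2. Of the 86 others that could be matched, 30 were higher and 16 lower with shDDX41 #1, and 17 and 5 with shDDX41 #2. The 40 genes with none of the arrangements above include ALMS1-IT1 and LINC01138, which overlap a coding gene on their own strand without sharing exon bases. Their median log2 fold change with shDDX41 #1 was 0.00159, with 12 higher and 9 lower, and 7 were higher and 4 lower with shDDX41 #2. These counts stand beside 23.7% higher and 24.1% lower over all genes tested with shDDX41 #1, and 11.6% and 13.4% with shDDX41 #2, and the subsets were not tested against each other.

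Between the hairpins, 37 genes were higher with shDDX41 #1 (background 24.6%) and 35 lower (background 24.2%), 37.7% of the 191 together, against 48.8% of all genes. The groups did not overlap for 94 genes, against 57.7% of all. Both contrasts against sh-Control use the same 3 control libraries and are not independent. Side by side, 22 genes were called higher in each, 11.5% of the 191 against 5.37% of all genes tested. Lower in each were 2 (1.05% against 5.82%), and 1 was called with opposite signs (0.524% against 3.05%). The 22 fall to 12 without replicate D of shDDX41 #2.

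**Figure D2:**
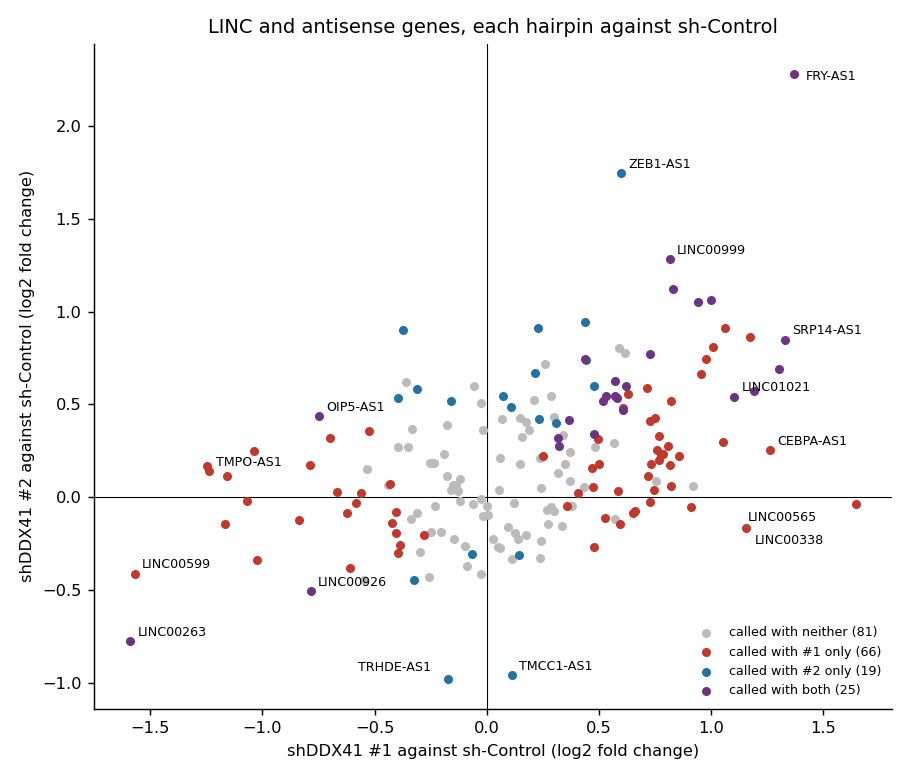
Log2 fold change against sh-Control with shDDX41 #1 (horizontal axis) and with shDDX41 #2 (vertical axis) for the 191 genes, coloured by the comparisons in which each was called. Most coloured points lie right of or above 0, FRY-AS1 is the farthest up and LINC00263 the farthest left, and the axes share their control libraries.

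The leading rises with shDDX41 #1 were transcripts at low counts. LINC00565, now named SWINGN, at chr13:113926514-113928844, was at 1.89, 1.66 and 1.32 CPM in sh-Control (here and later in the order A, B, D), at 5.12, 5.81 and 4.31 with shDDX41 #1 and at 1.78, 1.49 and 1.46 with shDDX41 #2. The shDDX41 #1 libraries lay apart from the other 6, with a log2 fold change of 1.65 against sh-Control (SE 0.207, adjusted p 1.4e-05) and 1.68 against shDDX41 #2 (adjusted p 1.1e-05). LINC00338, now SNHG20 and a host of SCARNA16, was at 3.55, 3.33 and 4.27 CPM in sh-Control, 6.75, 8.44 and 9.71 with shDDX41 #1 and 3.13, 2.63 and 4.30 with shDDX41 #2. It rose by 1.16 on the log2 scale with shDDX41 #1 (SE 0.190, adjusted p 1.6e-04), and its sh-Control and shDDX41 #2 libraries overlapped.

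Several of the rises lie head to head with a coding gene. CEBPA-AS1, whose promoter window is shown above, begins beside CEBPA, the transcription factor of granulocyte and monocyte development. It was at 2.83, 2.35 and 3.74 CPM in sh-Control, 7.11, 6.53 and 7.89 with shDDX41 #1 and 3.03, 4.12 and 3.52 with shDDX41 #2. The rise with shDDX41 #1 was 1.26 on the log2 scale (SE 0.184, adjusted p 5.4e-05), while with shDDX41 #2 the libraries overlapped sh-Control. CEBPA itself was at 544, 550 and 494 CPM in the means of sh-Control, shDDX41 #1 and shDDX41 #2 and was not called with either hairpin.

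SRP14-AS1, opposite to the gene of a signal recognition particle subunit, was at 1.33, 1.49 and 1.11 CPM in sh-Control, 3.74, 3.23 and 2.91 with shDDX41 #1 and 2.38, 2.83 and 1.82 with shDDX41 #2. It rose by 1.33 (SE 0.234, adjusted p 2.8e-04) and 0.85 (SE 0.241, adjusted p 0.018) on the log2 scale. PSMG3-AS1, opposite to the gene of a proteasome assembly chaperone, was at 1.83, 2.24 and 2.16 CPM in sh-Control, 4.40, 5.33 and 4.49 with shDDX41 #1 and 2.97, 2.98 and 3.33 with shDDX41 #2. Its rises were 1.19 (SE 0.178, adjusted p 7.0e-05) and 0.57 (SE 0.185, adjusted p 0.035). Both shDDX41 #2 calls were lost when 1 library was left out. SRP14-AS1 gave 0.69 without replicate B of shDDX41 #2 (adjusted p 0.099). PSMG3-AS1 did not pass without any 1 of the 6 libraries compared (adjusted p 0.0555 to 0.11), with 0.52 without replicate D of shDDX41 #2. It also missed the threshold in DESeq2 (adjusted p 0.064). SRP14 rose with shDDX41 #1, by 0.37 (adjusted p 0.0016), and with shDDX41 #2, by 0.25 (adjusted p 0.032), the latter not past the threshold without any 1 of the 6 libraries compared (adjusted p 0.058 to 0.13). PSMG3 was not called with either hairpin.

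FRY-AS1 and ZEB1-AS1 were the largest rises with shDDX41 #2. Their means over the 9 libraries, 31.4 and 26.4 counts, lie near the limit of 20. These means include the shDDX41 #2 libraries, where both genes are highest. FRY-AS1, at chr13:32025314-32031639, was at 0.555, 0.688 and 0.632 CPM in sh-Control, 2.05, 1.5 and 1.33 with shDDX41 #1 and 3.67, 2.43 and 3.09 with shDDX41 #2. It rose by 1.37 (SE 0.306, adjusted p 0.0019) and by 2.28 (SE 0.278, adjusted p 3.9e-05), with the 3 groups apart. FRY, the gene on the other strand, rose by 0.53 (adjusted p 3.6e-04) and 0.96 (adjusted p 6.0e-06). ZEB1-AS1, opposite to the gene of a transcription factor that represses epithelial genes, was at 0.777, 0.917 and 0.579 CPM in sh-Control, 1.21, 0.838 and 1.40 with shDDX41 #1 and 2.21, 2.53 and 2.91 with shDDX41 #2. Only with shDDX41 #2 did it pass the test, at 1.75 (SE 0.275, adjusted p 3.6e-04), and the hairpins differed by −1.15 (adjusted p 0.0020). ZEB1 rose with it, by 1.92 (adjusted p 2.4e-07) from 3.43 to 13.0 CPM.

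LINC00999, LINC00467, TOLLIP-AS1 and SDCBP2-AS1 also led the rises with shDDX41 #2, all called with shDDX41 #1 as well. LINC00999 rose by 1.28 (adjusted p 0.0027), LINC00467 by 1.12 (adjusted p 0.0048), TOLLIP-AS1 by 1.06 (adjusted p 0.0065) and SDCBP2-AS1 by 1.05 (adjusted p 0.016) on the log2 scale. All had means under 50 counts and levels of 0.698 to 1.52 CPM in sh-Control. The mean of SDCBP2-AS1, 20.6 counts, lies just over the limit of 20 and includes the libraries of both DDX41 hairpins, where it is higher. The shDDX41 #2 call of SDCBP2-AS1 was lost without replicate B of sh-Control (0.94, adjusted p 0.066), among 4 libraries whose omission ended it. The shDDX41 #1 calls of LINC00999, LINC00467 and SDCBP2-AS1 also ended on leaving out 1 library, with log2 fold changes of 0.68, 0.65 and 0.82 at the lowest.

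Among genes with a known role, LINC01021, now PURPL, rose with both hairpins. It was at 8.94, 8.66 and 8.32 CPM in sh-Control, 18.4, 19 and 18.3 with shDDX41 #1 and 11.6, 12.6 and 13.6 with shDDX41 #2. The 3 groups did not overlap, at log2 fold changes of 1.10 (SE 0.103, adjusted p 7.5e-07) and 0.54 (SE 0.105, adjusted p 0.0018), and the hairpins differed by 0.56 (adjusted p 2.9e-04). It lies at chr5:27472292-27496401 with no protein-coding gene over it.

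LINC00657, now NORAD, a cytoplasmic RNA that binds Pumilio proteins and is known to be induced by DNA damage, was at 225, 220 and 209 CPM in sh-Control, 314, 300 and 298 with shDDX41 #1 and 270, 278 and 280 with shDDX41 #2. The smaller rises of 0.48 (SE 0.0589, adjusted p 1.1e-05) and 0.34 (SE 0.0588, adjusted p 7.5e-04) were well measured at this level, and the hairpins did not differ past the threshold (adjusted p 0.063). MMP24-AS1, now the coding gene MMP24OS, rose by 0.58 and 0.54 (adjusted p 9.6e-05 and 5.7e-04). LINC00152, now CYTOR, was at 5.60, 6.21 and 6.34 CPM in the group means and was not called.

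FAM211A-AS1, now SNHG29 and the host of SNORD49A, SNORD49B and SNORD65, had the highest level per length among the 180 genes with an annotated exon length, which do not include HNRNPU-AS1. Its mean was 286 CPM per kb of exon in sh-Control, against 53.1 for LINC00998, the next of these. It was at 1103, 982 and 1136 CPM in sh-Control, 1834, 1777 and 2228 with shDDX41 #1 and 1245, 1270 and 1245 with shDDX41 #2. It rose by 0.86 (SE 0.0855, adjusted p 1.3e-06) with shDDX41 #1, while the 0.22 with shDDX41 #2 missed the threshold (adjusted p 0.067) although the libraries did not overlap. The 191 genes together took 0.301% to 0.308% of the counts in sh-Control libraries, 0.406% to 0.426% with shDDX41 #1 and 0.332% to 0.340% with shDDX41 #2. Without this gene the shares were 0.191% to 0.202%, 0.212% to 0.225% and 0.207% to 0.215%, so most of the difference in the sum with shDDX41 #1 was in that 1 gene.

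Of 13 genes that hold a small RNA gene, 6 rose and 1 fell with shDDX41 #1, and 1 rose with shDDX41 #2. That is 46.2% higher and 7.69% lower with shDDX41 #1, against 23.7% and 24.1% of all genes tested, and 7.69% higher with shDDX41 #2, against 11.6%. Of the 6 that rose, SNHG29, SNHG20, LINC00888 (now SNHG33, 0.72) and UBA6-AS1 (0.59) hold a snoRNA or Cajal body RNA model. The others that rose, ENTPD1-AS1 (0.79) and GABPB1-AS1 (0.57), hold a microRNA. The 6 not called with shDDX41 #1 include TMEM161B-AS1, which also holds a snoRNA model, and genes that hold a microRNA. The gene that fell was LINC00599, the host of the neuronal microRNA miR-124 at its first locus, from 3.16, 6.19 and 5.37 CPM in sh-Control to 1.21, 1.26 and 2.49 with shDDX41 #1. With shDDX41 #2 it was at 4.65, 2.98 and 3.45 CPM, which overlapped sh-Control, and the fall with shDDX41 #1 was 1.57 on the log2 scale (SE 0.304, adjusted p 6.4e-04).

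HNRNPU-AS1, named for a nuclear RNA-binding protein, was at 71.2, 96.8 and 77.2 CPM in sh-Control, 184, 178 and 146 with shDDX41 #1 and 113, 92.0 and 96.9 with shDDX41 #2. It rose by 1.05 with shDDX41 #1 (SE 0.114, adjusted p 3.2e-06). HNRNPU was at 2209, 2324 and 2329 CPM in the group means and was not called. Since the current symbol tables fold HNRNPU-AS1 into HNRNPU, its counts stand for part of that locus.

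**Figure D3:**
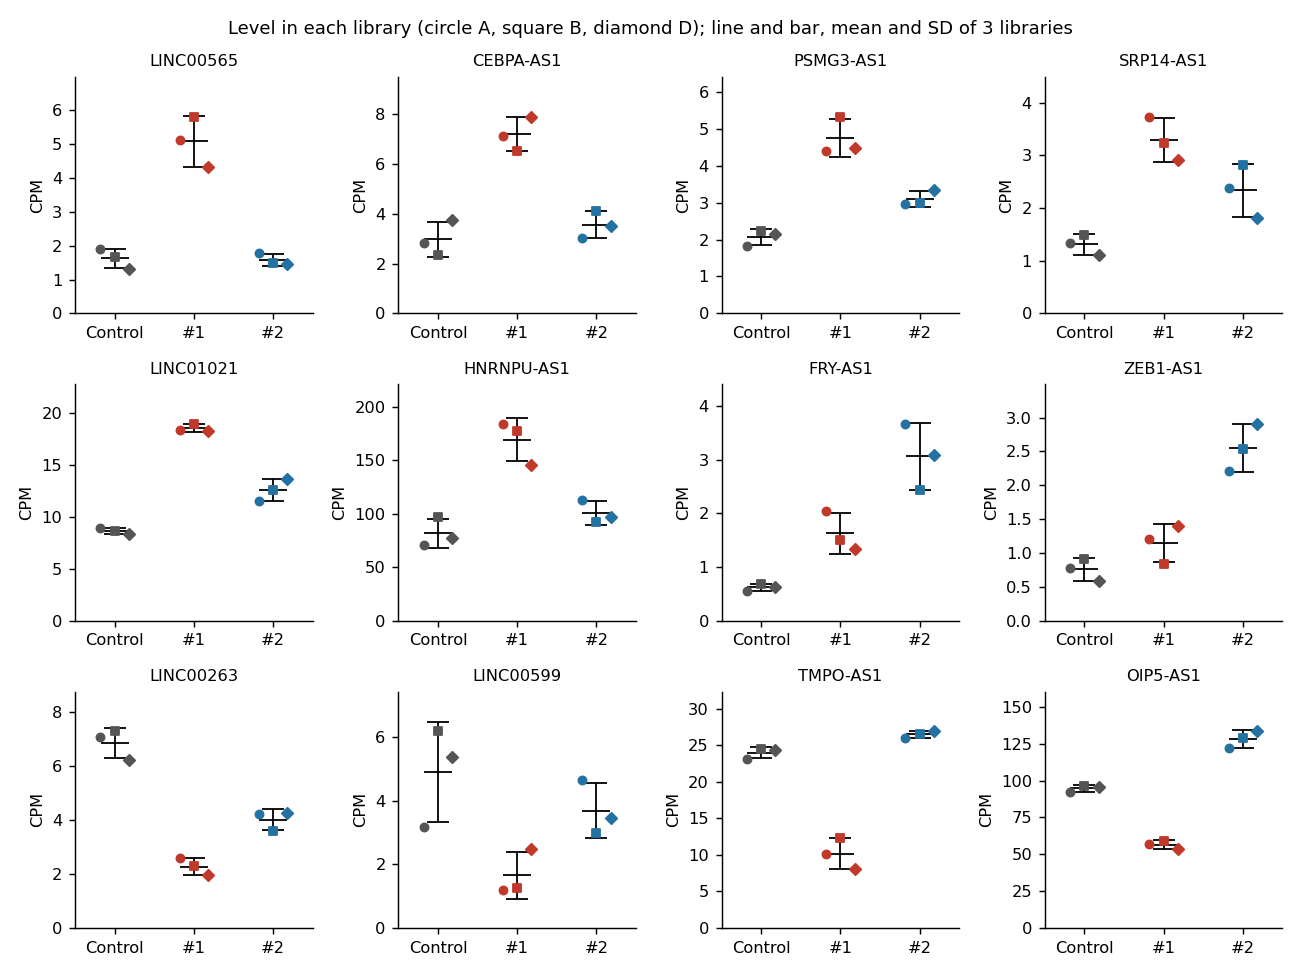
Level in CPM (vertical axes, from 0) of 12 genes in each library of sh-Control (grey), shDDX41 #1 (red) and shDDX41 #2 (blue), with the mean and SD of 3 libraries. The top row and LINC01021 are highest with shDDX41 #1, FRY-AS1 and ZEB1-AS1 highest with shDDX41 #2, LINC00263 falls with both, and OIP5-AS1 moves from a mean of 94.6 CPM to 56.4 with shDDX41 #1 and to 128 with shDDX41 #2.

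The falls were fewer. LINC00263, now OLMALINC, at chr10:100373513-100454043, was at 7.05, 7.28 and 6.21 CPM in sh-Control, 2.59, 2.27 and 1.94 with shDDX41 #1 and 4.21, 3.57 and 4.24 with shDDX41 #2. The 3 groups lay apart, with log2 fold changes of −1.59 (SE 0.167, adjusted p 2.4e-06) and −0.77 (SE 0.152, adjusted p 0.0019) and a difference of −0.81 between the hairpins (adjusted p 0.0015). LINC00926 was the other gene lower with both, from 53.0, 69.6 and 64.9 CPM in sh-Control to 34.1, 37.6 and 37.0 with shDDX41 #1 and 45.7, 42.1 and 44.2 with shDDX41 #2. Its log2 fold changes were −0.79 (adjusted p 7.0e-06) and −0.51 (adjusted p 9.6e-04).

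TMPO-AS1 lies opposite to TMPO, which encodes a lamina-associated protein. It was at 23.1, 24.5 and 24.4 CPM in sh-Control, 10.1, 12.3 and 8.07 with shDDX41 #1 and 26.0, 26.5 and 27.0 with shDDX41 #2. It fell by 1.24 on the log2 scale with shDDX41 #1 (SE 0.120, adjusted p 1.0e-06), and the hairpins differed by −1.38 (adjusted p 3.4e-07). TMPO fell as well, from 396 to 228 CPM (log2 fold change −0.79, adjusted p 1.6e-07), and was at 383 CPM with shDDX41 #2.

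OIP5-AS1, also called cyrano and known for a site that pairs with miR-7, was the gene called with opposite signs. It was at 92.3, 96.3 and 95.4 CPM in sh-Control, 56.6, 59.2 and 53.3 with shDDX41 #1 and 122, 129 and 134 with shDDX41 #2. The 3 groups were far apart relative to their spread, with log2 fold changes of −0.75 (SE 0.0664, adjusted p 4.3e-07) and 0.44 (SE 0.0644, adjusted p 2.0e-04) and a difference of −1.18 between the hairpins (SE 0.0663, adjusted p 6.1e-09). OIP5, whose protein takes part in loading the centromeric histone, fell by 1.08 on the log2 scale with shDDX41 #1 (adjusted p 1.1e-06), from 20.9 to 9.91 CPM, and was not called with shDDX41 #2, at 17.8 CPM. The model of OIP5-AS1 shares 470 exon bases with OIP5 on the opposite strand and 327 with a coding gene on its own strand.

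Other falls with shDDX41 #1 were at low counts. IL10RB-AS1 fell by 1.25 (adjusted p 0.012), ALMS1-IT1 by 1.17 (adjusted p 0.0092), KDM4A-AS1 by 1.16 (adjusted p 0.0072) and LINC01140 by 1.04 (adjusted p 9.0e-04) on the log2 scale, from means of 1.58, 1.45, 1.40 and 2.93 CPM in sh-Control. The first 3 are the genes under 10 counts in a shDDX41 #1 library, which the filter kept through the groups where they are high. Without replicate A of sh-Control, IL10RB-AS1 was at −1.04 and no longer passed (adjusted p 0.059). KDM4A, a histone demethylase gene, moved the other way to KDM4A-AS1, with a rise of 0.59 (adjusted p 2.1e-05) from 51.2 to 77.0 CPM. With shDDX41 #2, TMCC1-AS1 fell by 0.96 (adjusted p 9.8e-04) from 5.0, 6.94 and 7.69 CPM to 3.78, 3.17 and 3.15, and TRHDE-AS1 by 0.98 (adjusted p 0.0059) from 5.05, 2.98 and 4.84 CPM to 2.21, 2.48 and 1.82. TMCC1-AS1 was at 6.99, 7.06 and 7.16 CPM with shDDX41 #1, within the sh-Control range, while TMCC1 rose there by 1.06 (adjusted p 2.4e-05). FGD5-AS1, among the 6 highest levels, fell by 0.30 with shDDX41 #2 (adjusted p 0.0065), from 103 to 83.1 CPM. TRG-AS1, in the T-cell receptor gamma locus, and LINC00984, now INAFM2, fell by 0.45 and 0.31 with shDDX41 #2 (adjusted p 0.020 and 0.040), and neither passed on leaving out 1 library (adjusted p 0.096 without replicate B and 0.18 without replicate D of sh-Control). LINC00211 rose with shDDX41 #2 by 0.90 (adjusted p 0.011, and 0.052 without replicate B of that group), from 1.12 to 2.09 CPM, and was at 0.864 CPM with shDDX41 #1.

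Of 5 genes listed as encoding small proteins, 2 were higher and 1 lower with shDDX41 #1, against 23.7% and 24.1% of all genes. Of the same 5, 2 were higher and 0 lower with shDDX41 #2, against 11.6% and 13.4%. LINC00116, now MTLN, which encodes a mitochondrial microprotein, rose by 0.53 with shDDX41 #1 (adjusted p 0.0021), from 18.2, 14.6 and 18.3 CPM to 22.2, 22.3 and 29.1. LINC00998, now SMIM30, fell by 0.40 (adjusted p 0.0061), from 91.8, 98.8 and 111 CPM to 73.5, 63.5 and 91.5, and LINC00493, now SMIM26, was at 0.24 (adjusted p 0.065). LINC00467 rose by 0.83 (adjusted p 0.017), a call lost on leaving out 1 library, and LINC00094 was at 0.31 (adjusted p 0.081). With shDDX41 #2 LINC00467 and LINC00094 (0.40, adjusted p 0.044) were higher and the other 3 were not called. Of the 11 genes now annotated as coding, 3 rose and 1 fell with each hairpin, 27.3% and 9.09%. Over all genes tested, 23.7% were higher and 24.1% lower with shDDX41 #1, and 11.6% and 13.4% with shDDX41 #2.

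The gene that an antisense or intronic transcript is named for was tested in 118 pairs, and it had the higher CPM in 105 of them. Of 39 transcripts that rose with shDDX41 #1 in these pairs, the named gene rose in 13, fell in 6 and was not called in 20. Of 14 that fell, it fell in 5, rose in 3 and was not called in 6. Across the 118 pairs the Pearson correlation of the log2 fold changes was 0.232 with shDDX41 #1 and 0.329 with shDDX41 #2, with Spearman coefficients of 0.182 and 0.133. Both genes of a pair share libraries and, where they overlap, possibly reads, and genes are not independent replicates. The median change of the named genes was 0.0849 with shDDX41 #1, with 33 higher and 22 lower, and that of the transcripts 0.238. With shDDX41 #2, of 22 transcripts that rose, the named gene rose in 7, fell in 7 and was not called in 8. Over the 118 pairs, 18 named genes were higher and 16 lower with this hairpin.

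**Figure D4:**
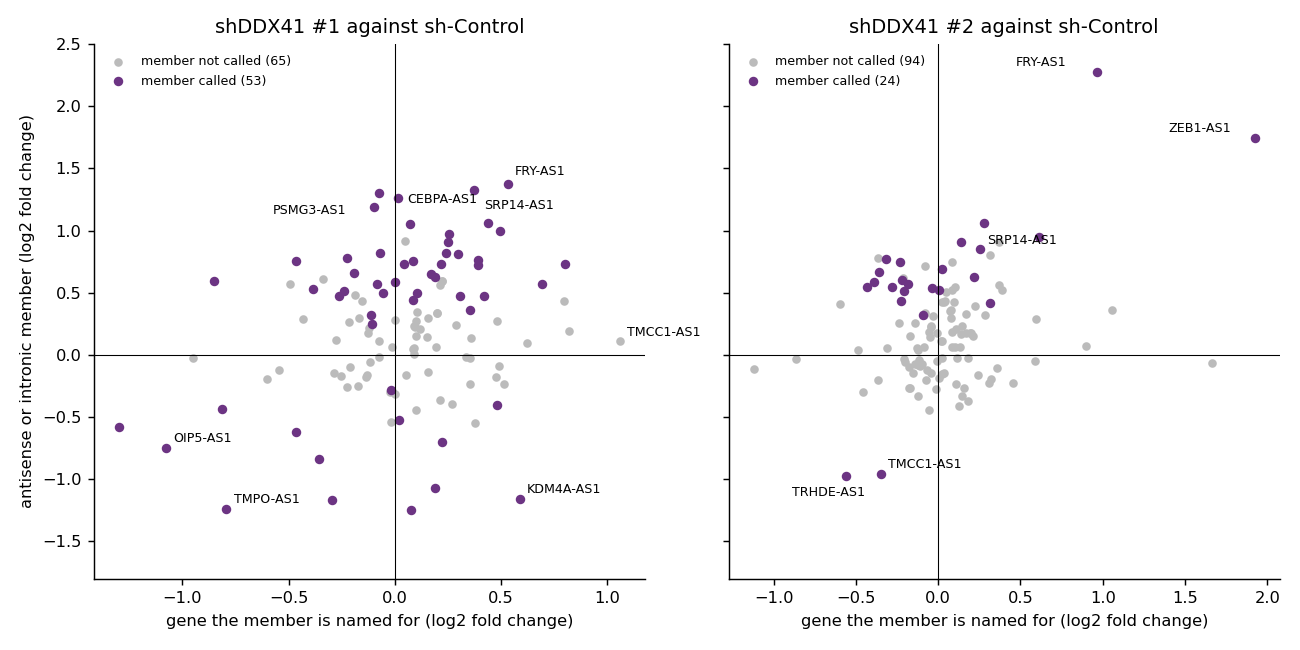
Log2 fold change against sh-Control of the gene each transcript is named for (horizontal axis) and of the antisense or intronic transcript itself (vertical axis) for 118 pairs, with called transcripts in purple. FRY-AS1 and ZEB1-AS1 rise together with FRY and ZEB1 with shDDX41 #2, TMPO-AS1 and OIP5-AS1 fall together with TMPO and OIP5 with shDDX41 #1, and CEBPA-AS1 and PSMG3-AS1 rise at named genes that lie near 0.

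Well-known long non-coding genes that carry other names were listed for comparison. Of 35 listed, 29 were in the table and 20 were tested: 3 rose and 2 fell with shDDX41 #1, against 23.7% and 24.1% of all genes tested. With shDDX41 #2, 1 rose and 2 fell, against 11.6% and 13.4%. TUG1 rose with both, by 0.78 (adjusted p 4.5e-06) and 0.33 (adjusted p 0.012), from 161 CPM to 278 and 203. DLEU2, which lies in a region often deleted in chronic lymphocytic leukemia, fell by 1.38 with shDDX41 #1 (adjusted p 3.5e-08), from 39.4 to 15.1 CPM. MALAT1 was at 67.4, 112 and 136 CPM in sh-Control, 94.4, 109 and 376 with shDDX41 #1 and 90.5, 98.2 and 82.8 with shDDX41 #2. It was not called against sh-Control (0.88, adjusted p 0.070 with shDDX41 #1). That difference rests on replicate D of shDDX41 #1. Without that library it was −0.038 (adjusted p 0.87), at a mean of 102 CPM over replicates A and B. Between the hairpins MALAT1 was called, at 1.09 (adjusted p 0.028), in a contrast that includes the same replicate D at 376 CPM. No gene of the HOX clusters was among the 191.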

How the data were processed

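The deposited table holds whole-number counts per gene symbol, not normalized, in 1 column per library. The submitters' processing notes name FastQC 0.11.7, HISAT2 2.0.5 and featureCounts 1.5.2 and the builds hg38 and mm10. How the authors set strand and shared reads in counting is not given in the sources used here. Libraries were poly(A)-selected, so transcripts without a tail are underrepresented. Groups came from the labels. The tests used edgeR 4.0.16 under R 4.3.3, with filterByExpr with a minimum count of 10, TMM scaling, and 1 quasi-likelihood fit to all 9 libraries, with two-sided tests adjusted over 12712 genes per contrast. CPM are relative to the scaled library total. The fit was tested on simulated data.

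The genes and lists were chosen with earlier results of these data known. Named genes are the largest rises and falls per contrast without overlap of the groups, the 6 highest levels, the leading genes called with both hairpins, genes of known function, and the genes they are named for. Differences that were not called and were under 0.2 (log2) are given as levels only. Results of some items are not reported here, though they count in the totals over all genes. Gene types and coordinates are those of GENCODE 29, and promoter sequences those of RefSeq. Alternatives included DESeq2 1.42.0, limma 3.58.1 (voom), other scaling factors and filters, and each library left out.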

Additional observations from a re-analysis of the deposited data

Results flagged for a closer look

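The change against sh-Control differed between the hairpins for 27 of the named genes in the edgeR test of shDDX41 #1 against shDDX41 #2. Part of them were named for the size of this difference, so their number is not a result. OIP5-AS1 stands out because it was called in opposite directions against sh-Control, with a difference of −1.18 on the log2 scale. All values below are that log2 difference. Among genes higher with shDDX41 #1 only, it was 1.68 for LINC00565, 1.32 for LINC00338, 1.01 for CEBPA-AS1, 0.75 for HNRNPU-AS1, 0.64 for LINC00116 and 0.63 for FAM211A-AS1. Among genes lower with shDDX41 #1 only, it was −1.41 for IL10RB-AS1, −1.38 for TMPO-AS1, −1.29 for LINC01140, −1.27 for KDM4A-AS1, −1.16 for LINC00599, −1.02 for ALMS1-IT1, −0.58 for LINC00341 and −0.32 for LINC00998. IL10RB-AS1, KDM4A-AS1 and ALMS1-IT1 are the genes that the filter kept through sh-Control and shDDX41 #2, where they are high. ALMS1-IT1 no longer passed without replicate B of shDDX41 #1 (−0.79, adjusted p 0.090) or of shDDX41 #2 (−0.78, adjusted p 0.11), and LINC00998 without any 1 of 4 libraries, replicates A and B of shDDX41 #1 and A and D of shDDX41 #2 (−0.31 to −0.21, the latter without B).

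Among genes called with shDDX41 #2 only, the difference was −1.27 for LINC00211, −1.15 for ZEB1-AS1, 1.07 for TMCC1-AS1, 0.80 for TRHDE-AS1, 0.45 for LINC00984 and 0.24 for FGD5-AS1. Without replicate A of shDDX41 #1, TRHDE-AS1 was at 0.66 (adjusted p 0.051) and FGD5-AS1 at 0.18 (adjusted p 0.081), and without replicate A of shDDX41 #2, FGD5-AS1 was at 0.22 (adjusted p 0.054). Genes called in the same direction with both differed in size, by 0.62 for PSMG3-AS1, 0.56 for LINC01021, −0.28 for LINC00926, −0.81 for LINC00263 and, with the larger rise in shDDX41 #2, −0.91 for FRY-AS1. The shDDX41 #2 call of PSMG3-AS1 against sh-Control ended on leaving out any 1 library of that contrast. The difference for LINC00926 was lost without replicate A of shDDX41 #1 or replicate A or D of shDDX41 #2 (−0.24, −0.25 and −0.28, adjusted p 0.074, 0.079 and 0.057). NOP14-AS1 was called with neither hairpin against sh-Control and differed by 0.49 between them. The hairpins leave different amounts of DDX41 and target different sequences, and these cannot be told apart here.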

How the results depend on the processing

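Counts of called genes stayed within 1.5 times their value under other scaling factors, limma voom, the DESeq2 Wald test, fits to only the 6 libraries of a contrast, at least 10 counts in every library and GC and length offsets. Those that moved further follow. At an adjusted p under 0.01 the counts were 49, 19 and 41 in the 3 contrasts and 9 with the same sign for both hairpins. At a change of at least 2-fold they were 21, 6 and 15, with 1 of the same sign and 0 of opposite signs. With a mean of at least 100 counts required, they were 40, 19 and 33, with 11 of the same sign. Without genes with exon overlap, an alternative chosen after seeing the data, they were 41, 21 and 31, with 13 of the same sign and 0 of opposite signs. The last 2 settings start from fewer genes. Leaving out 1 library in turn gave 26 to 57 called with shDDX41 #2, 14 to 28 of the same sign and 1 to 2 of opposite signs. Without the filter on low counts, and with a replicate block, 2 genes had opposite signs. The replicate letters may pair some libraries. Between sh-Control and shDDX41 #1, correlations of deviations were 0.0725, 0.158 and 0.243 for the letters A, B and D. Between libraries of these groups with different letters they ran from −0.184 to 0.0664. In comparisons with shDDX41 #2 they ran from −0.0574 to 0.0225 for the same letter and from −0.0364 to 0.0658 for different letters. Whether the letters pair the libraries was not tested, and the main fit did not use them. With the replicate block the counts were 93, 52 and 73. Of 88 called results for single genes, 19 lost the call under at least 1 alternative, in 63 of 1660 fits, and none changed sign. Under 100 counts, which holds for 115 of the genes, counting error limits the precision.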
